A study of Mus musculus with 4 samples.

Results

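The genes described here are those of mitochondrial and peroxisomal fatty acid oxidation, 35 genes chosen by name among the 31017 gene names of the count tables. They were measured by bulk RNA-seq in sorted mouse beta cells, the insulin-secreting cells of pancreatic islets, with 2 CD63 high and 2 CD63 low libraries. The islets, from Wild type C57BL/6J males aged 10 weeks, were kept in culture overnight and dissociated with trypsin before the sort on CD63, a tetraspanin of endosomes, lysosomes and secretory granules. No gate other than CD63 is described for cells labelled as beta cells. Nothing in the labels ties a replicate to its own animal or sort, so p-values cover only the spread between these libraries, which may be technical.

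Fatty acid oxidation shortens acyl-CoA molecules in repeated rounds of dehydrogenation, hydration, dehydrogenation and thiolysis. Long-chain fatty acids are activated to acyl-CoA and enter mitochondria through the carnitine shuttle, whose first step is blocked by malonyl-CoA. Peroxisomes run a parallel set of enzymes for very long and branched chains. In beta cells glucose raises malonyl-CoA and so restrains oxidation, and the short-chain hydroxyacyl-CoA dehydrogenase Hadh also acts as a brake on amino acid-stimulated insulin release, since its loss in humans causes hyperinsulinism.

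The depth was 29249270 to 35003307 counts per library. Levels are in CPM, the count of a gene relative to the library total, scaled by the trimmed mean of M-values (TMM), a correction for differences in composition, so 1 CPM stood for 27.7 to 39.0 counts. Cd63 itself stood at 1973 and 2076 CPM in the CD63 high libraries and 1186 and 1120 CPM in the CD63 low libraries, which checks the groups and is no finding. Of 10 beta cell markers, Mafa, Slc2a2 and Slc30a8 were called lower in CD63 high cells, while the insulin genes Ins1 and Ins2 had edgeR adjusted p of 0.942 and 0.946. The 10 had a median log2 fold change (CD63 high over CD63 low) of -0.57, with 7 below 0 and 3 above. Both CD63 low libraries were above both CD63 high libraries in 6 of them, and below in 1. Over all tested genes these shares were 22.2% and 23.8%. Marker sums of several other cell types moved with the groups. Of 12 macrophage markers 11 were called higher in CD63 high cells, and their summed level was 157 and 591 CPM against 26.4 and 40.3 CPM. The sums were 5544 and 6212 against 658 and 688 CPM for 8 alpha cell markers (2 called higher), 452 and 889 against 73.4 and 43.8 CPM for 4 delta cell markers (3 higher), 2333 and 4112 against 559 and 278 CPM for 3 gamma cell markers (3 higher), 945 and 1389 against 23.6 and 303 CPM for 10 acinar markers (4 higher) and 2524 and 1364 against 690 and 671 CPM for 6 duct markers (1 higher). The higher duct sum came from Spp1, at 2006 and 913 against 129 and 118 CPM. Krt7 was lower in CD63 high cells, at 509 and 444 against 558 and 551 CPM. Of the 4 tested duct markers 3 had a log2 fold change above 0 and 1 below. Endothelial and stromal markers, 6 each, had no called gene and summed to at most 7.18 CPM in any library. Amy2a5 of acinar cells, Cftr of duct cells, Cdh5 of endothelial cells and Pdgfra of stromal cells had no count in any library.

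Most fatty acid oxidation genes differed little between CD63 high and CD63 low beta cells for the spread of the libraries, and none passed the test in either direction. All 35 had enough counts to be tested, and the quasi-likelihood test of edgeR (Benjamini-Hochberg adjustment) called 0 of them at an adjusted p under 0.05, where it called 2.79% of all 13241 tested genes (2.50% higher and 0.287% lower). DESeq2 called 1 of the 35, Hadh, with 4.62% called among all its tested genes, and limma-voom called 0. The median log2 fold change of the 35, CD63 high over CD63 low, was -0.10, against -0.01 over all tested genes. In 29 of the 35 the log2 fold change was smaller than 0.5 in size, which was not counted over all tested genes. The median size was similar, at 0.27 for the 35 and 0.30 for all tested genes. In 23 of 35, or 65.7%, the 95% interval excluded a change of 2-fold in either direction, as it did for 49.3% of all tested genes. The remaining 12 had intervals that reach past a 2-fold change, so that a change of this size cannot be set aside for them at this depth and number of libraries.

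**Figure D1:**
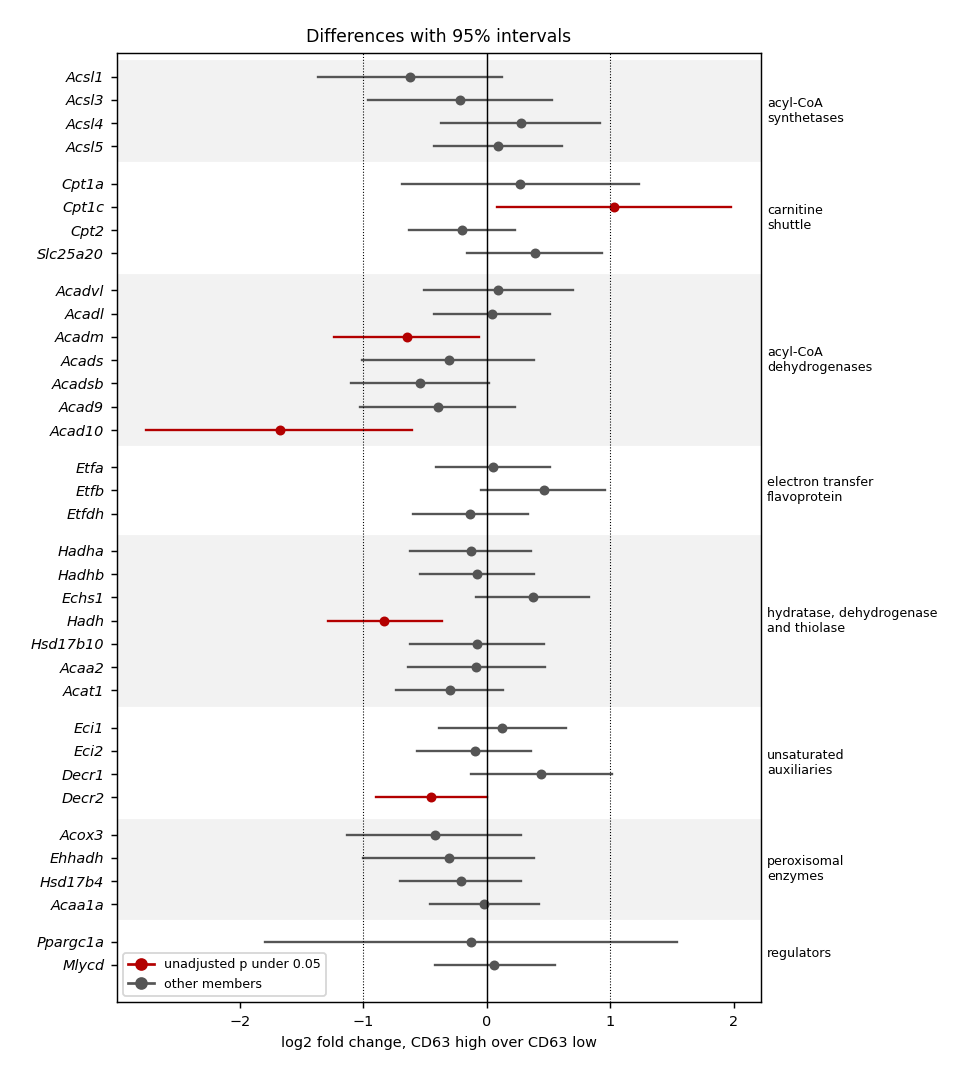
Log2 fold changes (CD63 high over CD63 low, edgeR) of the 35 genes with their 95% intervals, in rows ordered by role. Dotted lines mark a 2-fold change, and the 5 genes in red had an unadjusted p under 0.05, with Acad10 at -1.68 and Cpt1c at 1.03 as the extremes.

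The median difference between groups was near the median difference between replicates. The median size of the log2 fold change was 0.27, against 0.30 over all tested genes. The median log2 difference between the replicates was 0.28 in CD63 high and 0.26 in CD63 low cells. The fold change compares groups of 2 libraries and the replicate difference single libraries, so the sizes are not on equal terms. In 13 of 35 genes the difference between groups was larger than both differences between replicates, which was not counted over all tested genes. The 2 libraries of one group lay wholly above those of the other in 16 of the 35 genes (45.7%), and this held for 46.0% of all tested genes. In 11 of the 16 the CD63 low libraries were higher (31.4% of the 35, with 22.2% among all tested genes), and in 5 the CD63 high libraries were (14.3%, with 23.8%). At an unadjusted p under 0.05 stood 5 genes, or 14.3%, beside 14.9% of all tested genes. These 5 were Hadh, Acad10, Acadm and Decr2, with lower values in CD63 high cells (5.96% of all tested genes), and Cpt1c, with higher values (8.95%).

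**Figure D2:**
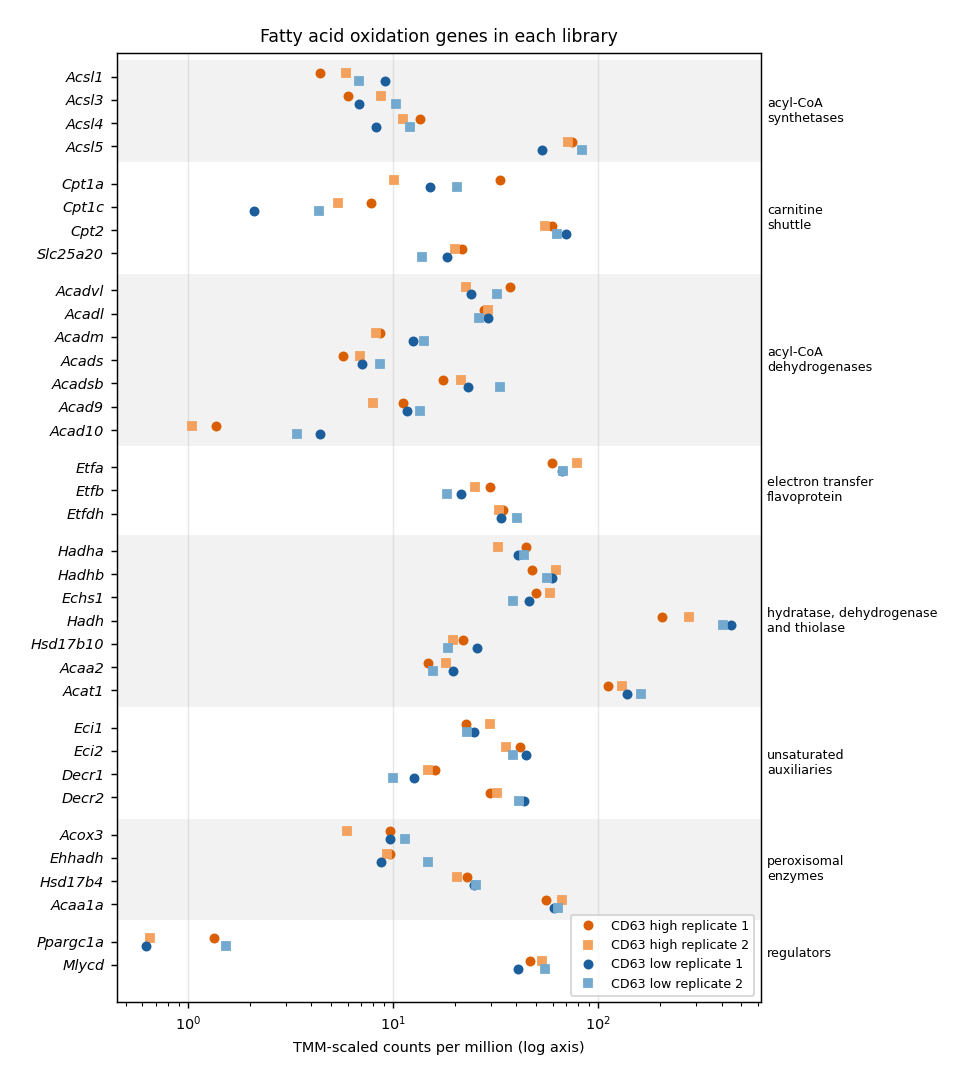
Level of each of the 35 genes in each of the 4 libraries, in TMM-scaled CPM on a log axis, with CD63 high libraries in orange and CD63 low libraries in blue. Points of the groups overlap in 19 genes, and Hadh lies farthest to the right, at 205 and 276 CPM in CD63 high and 446 and 406 CPM in CD63 low cells.

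Hadh (chromosome 3, 131233419 to 131272101, mm10) was the most abundant of the 35 genes and had the smallest p-value among them. Its level was 205 and 276 CPM in CD63 high replicates 1 and 2 and 446 and 406 CPM in CD63 low replicates 1 and 2. Both CD63 low libraries lay above both CD63 high libraries. The means were 241 ± 50.7 and 426 ± 28.1 CPM (SD, n = 2 per group), a 1.77-fold lower level in CD63 high cells, with a log2 fold change of -0.83 (SE 0.21, 95% interval -1.29 to -0.36). The edgeR adjusted p of 0.0683 missed the threshold. Hadh was lower in CD63 high cells in each of 12 alternative analyses and was called in 4 of them, with adjusted p from 0.00239 to 0.396. DESeq2 gave an adjusted p of 0.00385, and edgeR gave 0.00239 with no filter on low counts (5.12% of all its tested genes called), 0.0328 without CD63 low replicate 2 (3.77%) and 0.00308 with a crossed replicate block (7.11%). Leaving out CD63 high replicate 1 gave the highest. The crossed replicate block was chosen after seeing the data, and the planned replicate block gave Hadh an edgeR adjusted p of 0.135. In bulk libraries fewer cells of a type and less RNA per cell cannot be told apart, and the part that the markers of other cell types above have in this difference was not tested. Set against the insulin transcripts of the same library, Hadh had 0.430 and 0.501 counts per 1000 counts of Ins1 and Ins2 in CD63 high cells and 0.729 and 0.928 in CD63 low cells. This ratio is given as a description, without a test, and it depends on the beta cell markers used. Ins1 and Ins2 had log2 fold changes of 0.06 and -0.06. Ucn3, another beta cell marker, was at -0.82, near the -0.83 of Hadh. Whether Hadh differed beyond the beta cell markers was not tested.

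The summed level of the pathway differed mainly through Hadh. The 35 genes summed to 1206 and 1290 CPM in the CD63 high libraries and 1463 and 1497 CPM in the CD63 low libraries. Without Hadh the sums were 1001 and 1013 against 1017 and 1090 CPM, a range of 1001 to 1090 CPM over all 4 libraries. Per kilobase of annotated exon, the scale on which genes can be compared, Hadh stood at 41.1 and 55.5 CPM per kb against 89.6 and 81.6 CPM per kb. It made up 11.5% and 14.5% of the summed per-kilobase level of the 35 genes in CD63 high cells and 21.5% and 19.6% in CD63 low cells.

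The other genes differed widely in level on the per-kilobase scale. Averaged over the 4 libraries, Hadh reached 67.0 CPM per kb, higher than 96.9% of tested genes. Etfa (37.2), Acat1 (36.2), Cpt2 (25.9), Eci1 (23.0) and Etfb (20.3 CPM per kb) followed, and among these Etfa and Acat1 lay within the range of each other's libraries. The median of the 35 was 5.81 CPM per kb, against 2.32 CPM per kb for all tested genes, and 27 of the 35 lay above the latter. The lowest were Acsl1 (0.626), Acad10 (0.421) and Ppargc1a (0.158 CPM per kb). These levels use the exon length of all annotated transcripts together, which understates genes whose expressed transcript is short. They can also understate genes that share exon bases with another gene, such as Etfb (617 of 1164 bases) and Acadvl (1151 of 2686 bases). Reads on shared bases were left out while the full length was used.

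The 4 genes with the smallest p-values in the pathway are shown with the DNA before their transcription starts, since their groups stood farthest apart for their spread. The sequences are the 250 bases upstream of the RefSeq start (GRCm38.p6, the mm10 assembly), 5′ to 3′ on the strand of the gene. Capitals mark the GC box GGGCGG and the nuclear receptor half-site AGGTCA, the unit of the sites of the peroxisome proliferator-activated receptors (PPARs) and oestrogen-related receptors (ERRs), on either strand.
Hadh, chr3:131272102-131272351, minus strand: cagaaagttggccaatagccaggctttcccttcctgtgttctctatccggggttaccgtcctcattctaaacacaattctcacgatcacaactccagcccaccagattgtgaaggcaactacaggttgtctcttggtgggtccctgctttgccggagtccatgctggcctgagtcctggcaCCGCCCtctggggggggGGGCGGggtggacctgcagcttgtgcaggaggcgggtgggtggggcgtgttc
Acad10, chr5:121660511-121660760, minus strand: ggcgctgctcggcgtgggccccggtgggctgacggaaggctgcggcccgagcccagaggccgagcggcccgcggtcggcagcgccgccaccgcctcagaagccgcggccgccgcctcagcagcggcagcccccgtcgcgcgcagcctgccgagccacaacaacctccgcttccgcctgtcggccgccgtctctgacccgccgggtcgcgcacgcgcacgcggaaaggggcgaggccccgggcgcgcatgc
Acadm, chr3:153944644-153944893, minus strand: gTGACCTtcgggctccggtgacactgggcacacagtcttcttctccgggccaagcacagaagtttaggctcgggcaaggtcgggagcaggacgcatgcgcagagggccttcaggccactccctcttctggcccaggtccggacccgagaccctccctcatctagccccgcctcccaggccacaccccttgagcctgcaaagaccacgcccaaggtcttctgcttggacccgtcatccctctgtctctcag
Cpt1c, chr7:44974852-44975101, minus strand: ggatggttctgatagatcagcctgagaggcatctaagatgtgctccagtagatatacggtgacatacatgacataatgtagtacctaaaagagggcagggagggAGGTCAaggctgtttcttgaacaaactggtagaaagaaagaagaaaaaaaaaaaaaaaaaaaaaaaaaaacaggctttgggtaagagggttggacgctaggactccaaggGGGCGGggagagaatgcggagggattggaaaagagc
The table of RefSeq promoters matched 30 of the 35 genes, with 31 starts. A GC box was present before 21 of the 31 starts (67.7%), and before 32.7% of all 32851 starts. The half-site was present before 5 of the 31 (16.1%), those of Acadm, Acadvl, Cpt1a, Cpt1c and Echs1, against 14.0% of all starts. The ERR element TCAAGGTCA was found before 0 of the 31 and 0.387% of all starts, and the direct repeat of the half-site with 1 base of any kind between the copies before 0 and 0.0335%. These shares overlap, since both longer motifs hold half-sites, and both strands were searched. The windows before these 31 starts had a median GC content of 59.6%, against 52.4% over all starts. Of the windows printed above, that of Hadh held 2 GC boxes and no half-site, that of Acadm 1 half-site, that of Cpt1c 1 of each and that of Acad10 none of either, at 79.6% GC.

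Acyl-CoA synthetases activate fatty acids, and their mix in these cells was dominated by Acsl5, a synthetase found on mitochondria and endoplasmic reticulum. Acsl5 stood at 74.3 and 71.6 CPM in CD63 high and 53.5 and 83.5 CPM in CD63 low libraries. The CD63 low libraries enclosed those of CD63 high, with a log2 fold change of 0.09 (95% interval -0.43 to 0.61). Per kilobase it made up 74.4%, 72.4%, 69.4% and 73.6% of the 5 long-chain synthetases (Acsl1, Acsl3, Acsl4, Acsl5 and Acsl6) in CD63 high replicates 1 and 2 and CD63 low replicates 1 and 2. Acsl4, which prefers arachidonic acid, took 9.59% to 12.2%, and Acsl1, the main form in fat and heart, took 2.04% to 5.49%. Acsl1 was at 4.40 and 5.92 against 9.13 and 6.80 CPM, apart in all 4 libraries, and Acsl3 and Acsl4 overlapped between the groups. None of the 4 synthetases among the 35 had an edgeR adjusted p under 0.436.

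**Figure D3:**
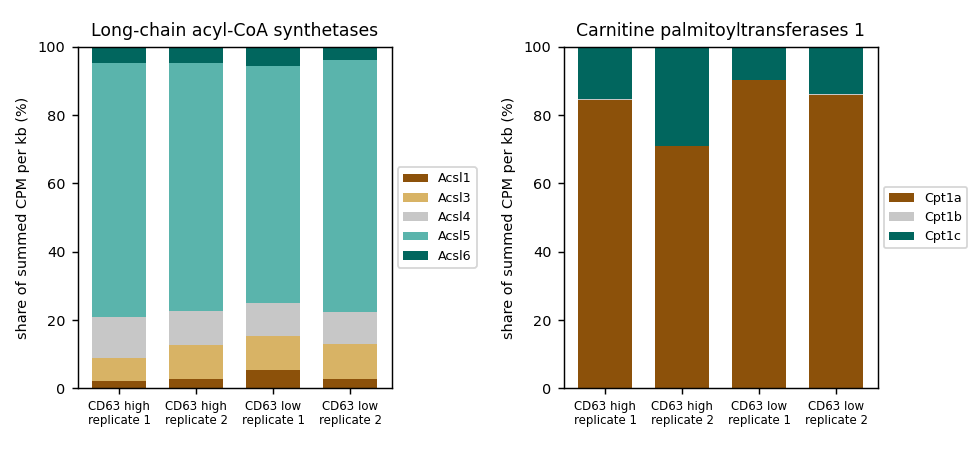
Shares of the summed CPM per kb taken by each gene of the long-chain acyl-CoA synthetases (left) and of the Cpt1 genes (right), one bar per library. Acsl5 takes 69.4% to 74.4% in every library, and Cpt1a takes 70.9% to 90.4%.

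In the carnitine shuttle, Cpt1a encodes the outer membrane transferase that malonyl-CoA inhibits, Slc25a20 the translocase and Cpt2 the inner membrane transferase. Cpt2 was the most abundant per kilobase, at 59.6 and 55.3 CPM in CD63 high and 69.5 and 62.9 CPM in CD63 low libraries. The groups did not overlap, but the log2 fold change was only -0.20 (95% interval -0.63 to 0.23). Cpt1a was at 33.1 and 10.1 CPM in CD63 high and 15.2 and 20.6 CPM in CD63 low libraries. Its CD63 high replicates differed by 1.71 on the log2 scale, the widest gap between CD63 high replicates of the 35 genes, and they enclosed both CD63 low values. Its log2 fold change of 0.27 became -0.83 without CD63 high replicate 1. Slc25a20 was at 21.8 and 20.0 against 18.3 and 13.8 CPM (log2 fold change 0.39, edgeR adjusted p 0.525).

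Cpt1c (chromosome 7, 44959372 to 44974851, mm10), a form known from the endoplasmic reticulum of neurons with little transferase activity, had the highest log2 fold change of the 35 genes. The level was 7.85 and 5.38 CPM in CD63 high and 2.11 and 4.34 CPM in CD63 low cells. Both CD63 high libraries were above both CD63 low ones, by a small margin between the nearest. The log2 fold change was 1.03 (SE 0.43, 95% interval 0.08 to 1.98) and the edgeR adjusted p 0.288. Without CD63 low replicate 1 it was 0.61 and without CD63 low replicate 2 it was 1.66. Cpt1c shares 366 exon bases with the gene 6530437J22Rik on the other strand, which had at most 3 counts in any library. Per kilobase its share of the 3 Cpt1 genes was 15.4% and 29.1% in the CD63 high libraries, against 9.61% and 13.9%. Cpt1b, the muscle form, had at most 2 counts in any library.

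Acyl-CoA dehydrogenases carry out the first step of each round and differ in the chain length they accept. Most of them had lower values in CD63 high cells, although none was called: in 5 of 7 both CD63 low libraries lay above both CD63 high libraries, which held for 22.2% of all tested genes, and the median log2 fold change was -0.40, against -0.01 over all tested genes. The exceptions were Acadl, for long chains, and Acadvl, for very long chains. Acadl, the most abundant of the 7 per kilobase of full exon length, was at 27.9 and 29.1 CPM against 28.9 and 26.4 CPM. The groups overlapped, with a log2 fold change of 0.04 (95% interval -0.43 to 0.51). Acadvl was at 37.0 and 22.7 against 24.1 and 32.0 CPM, with CD63 high replicates farther apart than the group means. Acadvl shares 1151 of its 2686 exon bases with Dvl2 on the other strand, and reads there could not be assigned by these counts. Its level of 10.8 CPM per kb may thus be understated, and its rank below Acadl (14.0 CPM per kb) is unsure.

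Acadm (chromosome 3, 153922357 to 153944632, mm10) encodes the medium-chain enzyme, whose loss in humans is a common disorder of fatty acid oxidation. It was at 8.68 and 8.23 CPM in CD63 high and 12.5 and 14.1 CPM in CD63 low libraries, so the groups were separate and the replicates close. The log2 fold change was -0.65 (SE 0.27, 95% interval -1.24 to -0.06), with an edgeR adjusted p of 0.280, and it passed in none of the 12 alternatives. Acads, the short-chain enzyme, Acadsb, which acts on branched chains from isoleucine, and Acad9, which also serves the assembly of respiratory complex I, were at log2 fold changes of -0.31, -0.54 and -0.40, with edgeR adjusted p of 0.362 to 0.722.

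Acad10 (chromosome 5, 121621026 to 121660514, mm10), a dehydrogenase of less certain substrate, had the largest fold change of the 35 genes at a low level. It had 43 and 29 counts in CD63 high and 134 and 132 counts in CD63 low libraries, or 1.37 and 1.05 against 4.41 and 3.39 CPM. Both CD63 high libraries were below both CD63 low libraries, and the replicates differed by less than 0.5 on the log2 scale. The log2 fold change was -1.68 (SE 0.49, 95% interval -2.76 to -0.61), a 3.21-fold lower level. The edgeR adjusted p was 0.107, ranged from 0.0264 to 0.253 over the alternatives and passed only when no filter on low counts was used.

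Electrons from these enzymes pass to the electron transfer flavoprotein, made of Etfa and Etfb, and on to ubiquinone through Etfdh. Etfa was at 59.9 and 78.8 CPM in CD63 high and 66.5 and 67.8 CPM in CD63 low libraries. The CD63 low values lay between the CD63 high values (log2 fold change 0.05, 95% interval -0.41 to 0.51). Etfb was at 29.6 and 25.1 against 21.5 and 18.3 CPM, higher in both CD63 high libraries, with a log2 fold change of 0.46 and an edgeR adjusted p of 0.397. Etfdh was at 34.3 and 32.9 against 33.7 and 40.1 CPM. The per-kilobase ratio of Etfa to Etfb, partners in a dimer, was 1.29 and 1.99 in CD63 high cells, against 1.96 and 2.35. Etfb shares 617 of its 1164 exon bases with Gm45233 on the same strand, and reads there were left out. Its per-kilobase level may thus be understated and this ratio overstated.

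The enzymes of hydration, second dehydrogenation and thiolysis other than Hadh had log2 fold changes of -0.30 to 0.37, and none was called. The groups were separate in Echs1 and Acat1 and overlapped in the others. Hadha and Hadhb form the trifunctional protein that handles long chains. Hadha was at 44.7 and 32.6 against 40.8 and 43.6 CPM, and Hadhb at 47.6 and 62.1 against 59.8 and 56.2 CPM. Both overlapped between the groups, with log2 fold changes of -0.13 and -0.08 and 95% intervals of -0.62 to 0.36 and -0.54 to 0.38. The per-kilobase ratio of Hadha to Hadhb was 0.708 and 0.397 in the CD63 high replicates and 0.515 and 0.587 in the CD63 low replicates, so the replicates of CD63 high spanned those of CD63 low. Echs1, the short-chain enoyl-CoA hydratase, was at 49.9 and 58.6 against 45.8 and 38.3 CPM (log2 fold change 0.37, edgeR adjusted p 0.463). Acat1, a thiolase of ketone body and isoleucine metabolism and the third most abundant of the 35 genes per kilobase, was at 112 and 131 against 139 and 162 CPM. It was lower in both CD63 high libraries, with a log2 fold change of -0.30 and an edgeR adjusted p of 0.536. Acaa2, the medium-chain thiolase, and Hsd17b10, a dehydrogenase that is also a subunit of mitochondrial ribonuclease P, overlapped between groups at log2 fold changes of -0.09 and -0.08.

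Enzymes that prepare unsaturated fatty acids for oxidation had log2 fold changes of both signs, and none was called. The isomerase Eci1 was at 22.7 and 29.6 CPM in CD63 high and 24.9 and 23.0 CPM in CD63 low libraries, with overlapping groups (log2 fold change 0.12, 95% interval -0.39 to 0.64). Decr1 and Decr2 are the mitochondrial and the peroxisomal dienoyl-CoA reductases, and their values lay in opposite directions. Decr2 (chromosome 17, 26081211 to 26090329, mm10) was at 29.8 and 32.0 CPM in CD63 high and 43.3 and 41.3 CPM in CD63 low libraries. The replicates lay within 0.10 of each other on the log2 scale and the groups were separate. Its log2 fold change was -0.45 (SE 0.20, 95% interval -0.90 to 0.00) with an edgeR adjusted p of 0.330. Decr1 was at 16.0 and 14.8 against 12.7 and 10.0 CPM, higher in both CD63 high libraries, with a log2 fold change of 0.44 and an edgeR adjusted p of 0.479. The difference between the responses of Decr1 and Decr2 was not tested. Eci2, an isomerase of peroxisomes and mitochondria, overlapped between groups at -0.10.

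The 4 peroxisomal enzymes had log2 fold changes of -0.42 (Acox3, an oxidase of branched chains), -0.31 (Ehhadh, one of the bifunctional enzymes), -0.21 (Hsd17b4, the other) and -0.02 (Acaa1a, a thiolase), and edgeR adjusted p of 0.608 to 0.980. Acaa1a, the most abundant of them per kilobase, was at 55.6 and 66.8 CPM in CD63 high and 60.7 and 63.5 CPM in CD63 low libraries, with the CD63 low values inside the CD63 high range. Acaa1a shares 290 exon bases with Myd88 on the other strand, and its close copy Acaa1b had at most 10 counts in any library.

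Among the regulators, Mlycd encodes malonyl-CoA decarboxylase, which removes the inhibitor of Cpt1a. It was at 46.6 and 53.4 CPM in CD63 high and 40.7 and 54.8 CPM in CD63 low libraries, with overlapping groups (log2 fold change 0.06, 95% interval -0.42 to 0.55). Ppargc1a, a coactivator of mitochondrial genes, was the least abundant of the 35, with 42 and 18 counts in CD63 high and 19 and 60 counts in CD63 low libraries. Its 95% interval of -1.80 to 1.54 covers changes past 2-fold in both directions, and none was detectable at this depth.

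**Figure D4:**
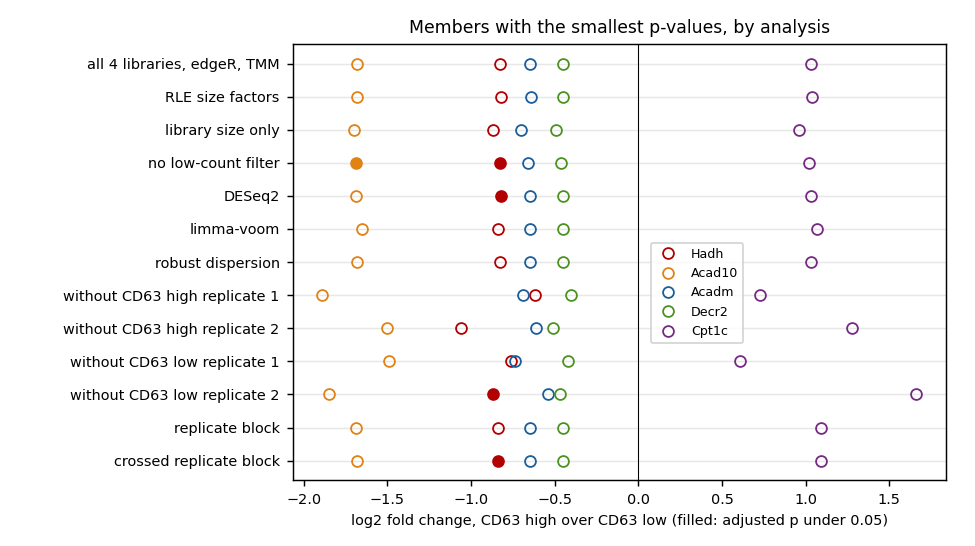
Log2 fold changes (CD63 high over CD63 low) of the 5 genes with an unadjusted p under 0.05, one row per analysis, with filled points at an adjusted p under 0.05. All 5 keep their sign in every row, and only Hadh (4 rows) and Acad10 (1 row) have filled points.

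Genes around the pathway were examined in 8 lists with 112 measured genes, 102 of them tested. In CD63 high cells 4 of the 102 rose and 2 fell, where 2.50% and 0.287% of all tested genes did, and the median log2 fold change was -0.10. The 4 that rose take up, carry or store lipid or cleave acyl-CoA. Cd36, a fatty acid transporter also known from macrophages, was at 10.8 and 46.7 CPM in CD63 high and 2.34 and 3.18 CPM in CD63 low cells, with a log2 fold change of 3.37 (SE 0.57, edgeR adjusted p 0.0106). The call was lost with limma-voom (log2 fold change 2.98, adjusted p 0.0574) and with the robust edgeR fit (3.37, adjusted p 0.105). Its log2 fold change was 1.96 when CD63 high replicate 2, which had the highest macrophage sum, was left out, and 4.07 without CD63 high replicate 1. Fabp5, a fatty acid binding protein that macrophages also express, was at 10.1 and 28.7 against 2.34 and 2.52 CPM (2.99, SE 0.46, adjusted p 0.00698), and its log2 fold change was 2.05 without CD63 high replicate 2. Plin2, a coat protein of lipid droplets and a PPAR target, was at 37.2 and 63.0 against 9.55 and 13.1 CPM (2.14, SE 0.29, adjusted p 0.00422). Acot9, a mitochondrial thioesterase, was at 10.4 and 8.59 against 3.16 and 2.95 CPM (1.64, SE 0.33, adjusted p 0.0259). Cd36, Fabp5 and Plin2 were highest in CD63 high replicate 2, where the 12 macrophage markers summed to 591 CPM, and the part of those cells in these rises was not tested. In Acot9 the higher value was in CD63 high replicate 1.

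The 2 that fell belong to fatty acid and sterol synthesis. Scd2, a stearoyl-CoA desaturase, was at 49.4 and 45.6 CPM in CD63 high and 88.1 and 139 CPM in CD63 low cells, with a log2 fold change of -1.26 (SE 0.24, edgeR adjusted p 0.0202). Insig1, which holds back sterol regulatory element binding proteins and is itself their target, was at 19.5 and 22.9 against 42.7 and 55.6 CPM (-1.21, SE 0.23, adjusted p 0.0182). The call of Insig1 was lost without CD63 high replicate 1 (edgeR adjusted p 0.0504). Without CD63 low replicate 1, 7 of the related genes were called lower, and so were 1.84% of all genes tested in that fit. Among the 13 tested genes of this list both CD63 low libraries were above both CD63 high libraries in 10, where this held for 22.2% of all tested genes, and the median log2 fold change was -0.46, against -0.01. Some of these genes were much higher in CD63 low replicate 2 than in replicate 1, as in Acly (2949 and 1508 CPM), Fasn (51.4 and 30.9) and Srebf1 (134 and 81.5). Their log2 fold changes of -0.78, -0.62 and -0.76 came to -0.20, -0.19 and -0.34 in the weakest alternative. In Elovl5 (146 and 133 CPM) and Acaca (5.52 and 5.17) these replicates were closer. With library size as the only scaling none of these 6 calls remained, and all 6 kept their sign.

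The remaining lists had no called gene. Of 13 tested genes of peroxisomal oxidation and transport, Abcd3, a peroxisomal acyl-CoA transporter, had the smallest p (log2 fold change -0.61, edgeR adjusted p 0.186). Of 17 regulators the smallest was that of Pprc1, a coactivator related to Ppargc1a (-0.84, adjusted p 0.235). Ppara had at most 7 counts in any library, while Pparg had 488 to 657 counts and a log2 fold change of 0.01. Among 17 peroxisome biogenesis genes it was that of Pex6 (-0.53, adjusted p 0.309), among 13 other mitochondrial and ketone body enzymes those of Acad11 (-0.49) and Mut (-0.42, both at 0.488), and among 6 partners of Acad9 and modifiers of the flavoprotein that of Ecsit (-0.31, adjusted p 0.593).

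**Figure D5:**
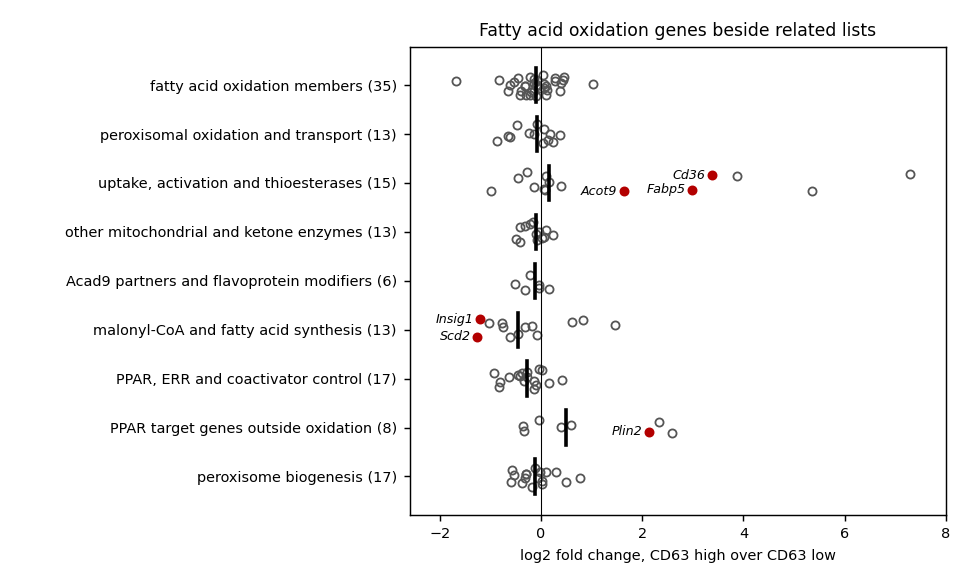
Log2 fold changes (CD63 high over CD63 low) of the fatty acid oxidation genes and of the tested genes of 8 related lists, 1 point per gene, with called genes filled and named and a bar at the median of each list. The list medians run from -0.46 (malonyl-CoA and fatty acid synthesis) to 0.50 (PPAR targets). The rightmost point, Acss1, had 10 and 25 counts in CD63 high and none in CD63 low libraries, and was not called (edgeR adjusted p 0.0713). If 3 counts are assumed over both CD63 low libraries, its level was 14.1-fold higher in CD63 high cells.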

How the data were processed

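Per the file headers, the authors deposited raw fragment counts per gene name, 1 table per library, made with featureCounts 1.6.2 in paired-end mode, without strand or multi-mapping options, with the gene annotation of Cell Ranger's mm10 reference, version 3.0.0. The submitters' processing notes also name STAR 2.6.0c, FastQC and Cell Ranger, without saying what each did. Libraries were prepared using SMARTer v4 low-input amplification followed by Nextera XT, per the labels' protocols, with no molecular identifiers named, so PCR copies can count as reads. Reads on exons shared by 2 genes were left out, and 12 of the 35 genes share exon bases with another gene, 9 of them on the other strand.

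Counts were filtered (filterByExpr, minimum count 10, minimum total 15), TMM-scaled and tested with glmQLFit and glmQLFTest of edgeR 4.0.16 in R 4.3.3, with no covariate, over 13241 genes. A call is a Benjamini-Hochberg adjusted p under 0.05 over all tested genes. Standard errors come from the fold change and the F statistic, and 95% intervals use edgeR's total degrees of freedom. Replicates had a common biological coefficient of variation of 0.264, and standard errors a median of 0.297 (log2). Per-kilobase levels divide CPM by the deposited exon length. DESeq2 1.42.0, limma-voom (limma 3.58.1), other scalings, no low-count filter, a robust fit, left-out libraries and a replicate block were alternatives. The script was tested on simulated data. With 2 libraries a group, the smallest two-sided exact permutation p is 0.333. Chi-square tests of counts between replicates gave 37.3 and 73.7 per degree of freedom, so replicates differed by more than sampling noise.

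Every library's value is given for genes with an unadjusted p under 0.05 and for the most abundant gene of each role. From each related list the called genes are named, or else that with the smallest p. Other values were added after they were seen. The 35 genes and all lists were chosen with earlier results of these data known, so their counts are described without a test of the lists.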

Additional observations from a re-analysis of the deposited data

How the results depend on the processing

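Of 12 alternatives 11 were planned, and 1, the crossed replicate block, was chosen after seeing the data. Over all tested genes 369 were called, and the count moved to 67 with library size as the only scaling, 940 with no low-count filter, 684 with DESeq2 and 450 to 769 with a library left out, the last without CD63 low replicate 1. No alternative called a fatty acid oxidation gene higher. Lower were 2 (Hadh and Acad10) with no filter, 1 (Hadh) with DESeq2 and 0 to 1 with a library left out, the 1 (Hadh) without CD63 low replicate 2. The median log2 fold change of the 35 lay between -0.18 and 0.00. Of the related genes 4 rose and 2 fell, against 0 and 0 with library size only, 7 and 5 with no filter, and 4 to 6 and 2 to 7 with a library left out, where 7 fell without CD63 low replicate 1. Signs and calls held in every alternative for 16 of the 35 genes, and 17 changed sign in at least 1. With library size only, Etfa and Mlycd came to 0.00, just below it. The ranges with a library left out were Acsl3 (-0.51 to 0.12), Acsl5 (-0.20 to 0.46), Cpt1a (-0.83 to 0.88), Acadvl (-0.30 to 0.40), Acadl (0.00 to 0.10), Etfa (-0.16 to 0.23), Etfdh (-0.26 to 0.01), Hadha (-0.37 to 0.08), Hadhb (-0.28 to 0.10), Hsd17b10 (-0.28 to 0.16), Acaa2 (-0.24 to 0.08), Eci1 (-0.08 to 0.30), Eci2 (-0.21 to 0.01), Ehhadh (-0.64 to 0.14), Acaa1a (-0.16 to 0.11), Ppargc1a (-0.75 to 0.68) and Mlycd (-0.14 to 0.31) on the log2 scale. The cause of these shifts was not tested. Ppargc1a, with 139 counts in all, was limited most by depth.

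The replicate numbers are those of the sample titles, and for the CD63 low libraries the deposited tables carry other numbers in their names, so what a shared number means is unsure. Deviations of libraries with the same number had a correlation of -0.101 over 13241 genes. With 2 libraries a group the crossed value is fixed as its mirror, at 0.101, so this cannot show whether the libraries were paired. They were not treated as pairs in the main fit, since the labels state no pairing. With the replicate block 616 genes were called, 0 of the 35 genes, and 7 higher and 2 lower of the related genes, with Hadh at an edgeR adjusted p of 0.135. With the crossed replicate block 942 were called, 1 of the 35 lower, and 5 higher and 6 lower of the related genes.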
